A study of Homo sapiens with 42 samples.

Results

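The subunits of the BAF complex are encoded by genes that themselves carry accessible chromatin, and 10 of these genes were followed here: SMARCA4, SMARCA2, ARID1A, ARID1B, ARID2, PBRM1, SMARCB1, SMARCC1, SMARCC2 and SMARCD3. They were chosen by name out of 19970 protein-coding genes of RefSeq GRCh38.p14, and a peak was assigned to a gene when its summit lay inside the gene or within 20 kb of it. The data were ATAC-seq peak lists, in which each peak marks a stretch of DNA that the transposase could enter. There were 42 such lists, from established tumour lines that the labels call wild type: 14 groups of 3 biological replicates, over 7 lines. A375 and 92-1 derive from a melanoma and a uveal melanoma, MV411 from an acute myeloid leukemia, RD from a rhabdomyosarcoma, HCT116 from a colorectal adenocarcinoma, 22RV1 from a prostate adenocarcinoma and DU4475 from an invasive breast carcinoma. Each was exposed for 4 h to DMSO, the solvent control, or to FHT-1015, which the labels give as an inhibitor of both SMARCA4 and SMARCA2. The labels call the replicates biological without saying whether they were separate cultures, so p-values measure the spread between these samples, which may be technical. The comparison asks whether blocking the ATPases of the complex changes the accessibility of the genes that encode the complex.

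BAF complexes (also called SWI/SNF) use ATP to slide or evict nucleosomes, and they hold many enhancers open. SMARCA4 and SMARCA2 are alternative ATPase subunits, and only 1 of them sits in a given complex. SMARCC1, SMARCC2, SMARCB1 and a member of the SMARCD group, to which SMARCD3 belongs, form the core. ARID1A and ARID1B are alternative DNA-binding subunits of the canonical form, while ARID2 and PBRM1 belong to the PBAF form. Several of these genes are recurrently mutated in human cancers.

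A peak was called strict when its −log10 q was at least 5. The gene loci held between 1 and 105 strict peaks per sample and 2289 over all samples, of which 573 lay within 1 kb of either end of the gene (gene-end peaks) and 1716 lay elsewhere in the locus (other peaks). This was 0.0491% to 0.240% of the strict peaks of a sample. The loci differ in size, from 27.1 kb for SMARCC2 to 434.8 kb for ARID1B, and the neighbours of SMARCC2, PBRM1, SMARCB1, SMARCD3, ARID1A, SMARCC1 and ARID2 end inside their windows. No other gene ended inside the windows of SMARCA4, SMARCA2 and ARID1B.

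The lists themselves differed in length: a sample had 114291 to 431956 peaks, of which 1412 to 121774 were strict. Read counts were not used here, so the depth is unknown. The background pileup implied by the deposited fold and −log10 p ranged from 0.0341 to 2.79. FHT-1015 replicates 2 and 3 of 92-1 stood apart with 2037 and 1412 strict peaks and the lowest background. A375 FHT-1015 replicate 2 had 67237 strict peaks, while the other two FHT-1015 samples of that line had 27964 and 32095. In FHT-1015 samples the mean number of strict peaks of the whole genome was 22.4% of the DMSO mean in 92-1, 46.5% in RD, 47.2% in MV411, 59.3% in 22RV1, 74.0% in DU4475, 83.2% in A375 and 94.6% in HCT116. The background in FHT-1015 samples was 58.6% of DMSO in MV411 and 141.5% in 22RV1, both without overlap of the groups. It was 57.7% in 92-1 and 98.6% to 152.1% in the other 4 lines, with overlap. The part of these differences in the numbers of peaks given below was not tested. Lists of 5 marker genes were checked in the DMSO samples among the 30000 strongest peaks, and they set the labelled lines apart only in part. The summed muscle peaks were 13 to 16 in RD (MYF5 at 0) and at most 8 in any other line. All 5 myeloid genes had peaks in MV411 alone, with sums of 7 to 9 against 2 to 8 in HCT116. All 5 melanocyte genes had peaks in A375 (11 to 16), 92-1 (6 to 10) and HCT116 (6 to 9), and 22RV1 had 10 to 11 with TYR at 0. All 5 intestinal genes had peaks in HCT116 (9 to 12) and 92-1 (3 to 11). The prostate genes had 5 to 7 peaks in 22RV1, with HOXB13 at 0, while all 5 had peaks in 92-1 (4 to 6). The breast genes had 10 to 13 peaks in DU4475, with GATA3 and ELF5 at 0, and 12 to 16 in 92-1.

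The sequences of 5 windows at gene starts are given for the ATPase genes, for the 2 starts of ARID1B, which differ in peaks, and for SMARCD3. RefSeq promoter windows (250 bases before to 50 after a start, GRCh38.p14, written 5′ to 3′ on the strand of the gene) were at hand for 7 of the 10 genes. Capitals mark motif matches on either strand, which may overlap. The letters GGGCGG stand for the GC box bound by Sp proteins, and a CCAAT box was searched by those letters. The letters CCGGAAG stand for the core that ETS family factors recognise. The letters TGACTCA stand for the site of the AP-1 dimers of Fos and Jun proteins.
SMARCA4 chr19:10960780-10961079 (+): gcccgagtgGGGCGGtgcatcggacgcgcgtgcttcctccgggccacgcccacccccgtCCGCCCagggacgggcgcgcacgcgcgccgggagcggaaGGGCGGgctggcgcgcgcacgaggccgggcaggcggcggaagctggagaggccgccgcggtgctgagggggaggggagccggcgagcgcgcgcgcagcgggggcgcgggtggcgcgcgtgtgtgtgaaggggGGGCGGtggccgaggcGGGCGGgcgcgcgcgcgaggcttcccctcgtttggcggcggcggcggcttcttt
SMARCA2 chr9:2015097-2015396 (+): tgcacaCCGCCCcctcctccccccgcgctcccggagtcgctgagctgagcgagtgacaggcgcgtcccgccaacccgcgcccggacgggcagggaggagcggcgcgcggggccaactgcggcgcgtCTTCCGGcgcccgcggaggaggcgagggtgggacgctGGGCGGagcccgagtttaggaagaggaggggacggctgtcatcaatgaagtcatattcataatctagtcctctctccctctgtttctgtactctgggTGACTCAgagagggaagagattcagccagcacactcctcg
ARID1B first start chr6:156775776-156776075 (+): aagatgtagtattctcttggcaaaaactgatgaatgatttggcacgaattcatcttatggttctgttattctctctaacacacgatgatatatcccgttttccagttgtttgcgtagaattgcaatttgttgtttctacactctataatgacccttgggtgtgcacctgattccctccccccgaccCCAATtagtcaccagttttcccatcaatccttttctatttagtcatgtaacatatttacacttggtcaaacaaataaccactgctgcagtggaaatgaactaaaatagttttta
ARID1B second start chr6:156777128-156777427 (+): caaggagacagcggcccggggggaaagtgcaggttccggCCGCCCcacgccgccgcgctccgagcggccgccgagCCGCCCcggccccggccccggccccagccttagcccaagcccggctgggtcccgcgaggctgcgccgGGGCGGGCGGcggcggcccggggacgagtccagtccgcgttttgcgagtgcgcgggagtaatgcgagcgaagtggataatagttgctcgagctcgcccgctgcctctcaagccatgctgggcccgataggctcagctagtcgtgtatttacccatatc
SMARCD3 chr7:151277100-151277399 (-): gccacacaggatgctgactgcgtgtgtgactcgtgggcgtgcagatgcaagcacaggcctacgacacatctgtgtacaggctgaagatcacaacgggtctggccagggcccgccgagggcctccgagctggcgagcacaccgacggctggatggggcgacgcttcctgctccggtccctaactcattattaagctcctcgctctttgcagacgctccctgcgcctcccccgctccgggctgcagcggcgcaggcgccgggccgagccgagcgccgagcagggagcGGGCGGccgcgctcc
The SMARCA4 window was 81.3% G and C with 5 GC boxes, and a strict summit fell in it in 19 DMSO and 18 FHT-1015 samples. The SMARCA2 window held 2 GC boxes, 1 ETS motif and 1 AP-1 motif, and a strict summit fell in it in 21 DMSO and 20 FHT-1015 samples. Of the ARID1B windows, the first was 37.7% G and C and held a CCAAT box and no strict summit in any sample. The second, at the start at 156777378, was 72.0% G and C with 4 GC boxes and held a strict summit in 11 DMSO and 11 FHT-1015 samples. The SMARCD3 window, with 1 GC box, held one in 16 DMSO and 10 FHT-1015 samples. Among 35116 RefSeq windows of the same length 45.0% held a GC box, 34.6% a CCAAT box, 10.3% the ETS motif and 4.95% the AP-1 motif. The CRE with the letters TGACGTCA was searched too. So were the E box with the letters CACGTG and the NRF1 motif. The TATA box was searched by the letters TATAAA. None of the 5 windows held any of these, and 1.85%, 7.26%, 1.24% and 11.5% of all windows did, in that order.

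FHT-1015 left the gene ends of the BAF genes without a called change. The number of strict gene-end peaks was lower or higher in 0 of 10 genes by the exact stratified permutation test with Benjamini-Hochberg adjustment over 16770 genes, where 0.298% of all genes were called lower and 0.0% higher. At an unadjusted p under 0.05 it was 1 of 10 (13.1% of all genes), and that gene was SMARCD3. For ARID1B, with a strict gene-end peak in 3 samples, the count was too low for a call to be possible. The median difference over the 10 genes was −0.0952 peaks and over all genes −0.143. Gene-end peaks per sample summed over the 10 genes averaged 22.3 ± 1.53 (SD, n = 3) in DMSO and 15.7 ± 2.08 in FHT-1015 in RD. They averaged 13.7 ± 1.15 and 10.3 ± 1.53 in MV411, and 25.3 ± 2.52 and 23.7 ± 2.52 in DU4475. In HCT116 the sums were 7 ± 1 in DMSO and 8.33 ± 0.577 in FHT-1015, and in A375 17.7 ± 4.04 and 20 ± 5.29. They were 10.3 ± 2.08 and 9.33 ± 0.577 in 22RV1 and 4.67 ± 4.62 and 2.67 ± 3.79 in 92-1. Within lines, 2 of 62 gene and line pairs were lower without overlap (5.34% of all such pairs) and 0 higher (0.528%). These were ARID1A in RD, with 4, 3 and 2 peaks in DMSO against 1, 0 and 1 (16.5% of all genes there), and ARID2 in MV411, with 3, 3 and 4 against 1, 2 and 1 (6.99%).

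To set lists of different depth on 1 scale, the strongest gene-end peak of each gene was ranked among all genes of its sample, which gives a gene-end percentile from 0 (no peak) to 100. It was called changed in 0 of 10 genes by the exact stratified permutation test (1.77% of 19613 genes lower, 0.505% higher), and 2 of 10 had an unadjusted p under 0.05 (14.7% of all genes). Those were ARID1A, 44.8 in DMSO against 52.1 (difference 7.29, SE over lines 4.42, adjusted p = 0.299, exact permutation test), and ARID2, 63.1 against 70.8 (7.67, SE 3.06, adjusted p = 0.195). Both were higher in 6 of 7 lines. For ARID1A the difference was 32 in 92-1, 12 in HCT116 and −1 to 3.67 in the other lines. For ARID2 it was 22 in 92-1, 12.7 in RD and −2.67 to 9 in the other lines. Within lines, 2 of 66 gene and line pairs had a lower percentile without overlap (7.31% of all such pairs) and 3 a higher one (6.02%). For ARID1A the groups lay apart in 92-1, with 0, 42 and 40 in DMSO and 44, 88 and 46 in FHT-1015. In that line 3.07% of genes were higher without overlap. No 92-1 sample had a strict ARID1A gene-end peak, and the 88 came from FHT-1015 replicate 2, with 2037 strict peaks in all. For ARID2 the groups lay apart in MV411, with 67, 63 and 65 against 68, 74 and 76 (7.84%).

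**Figure D1:**
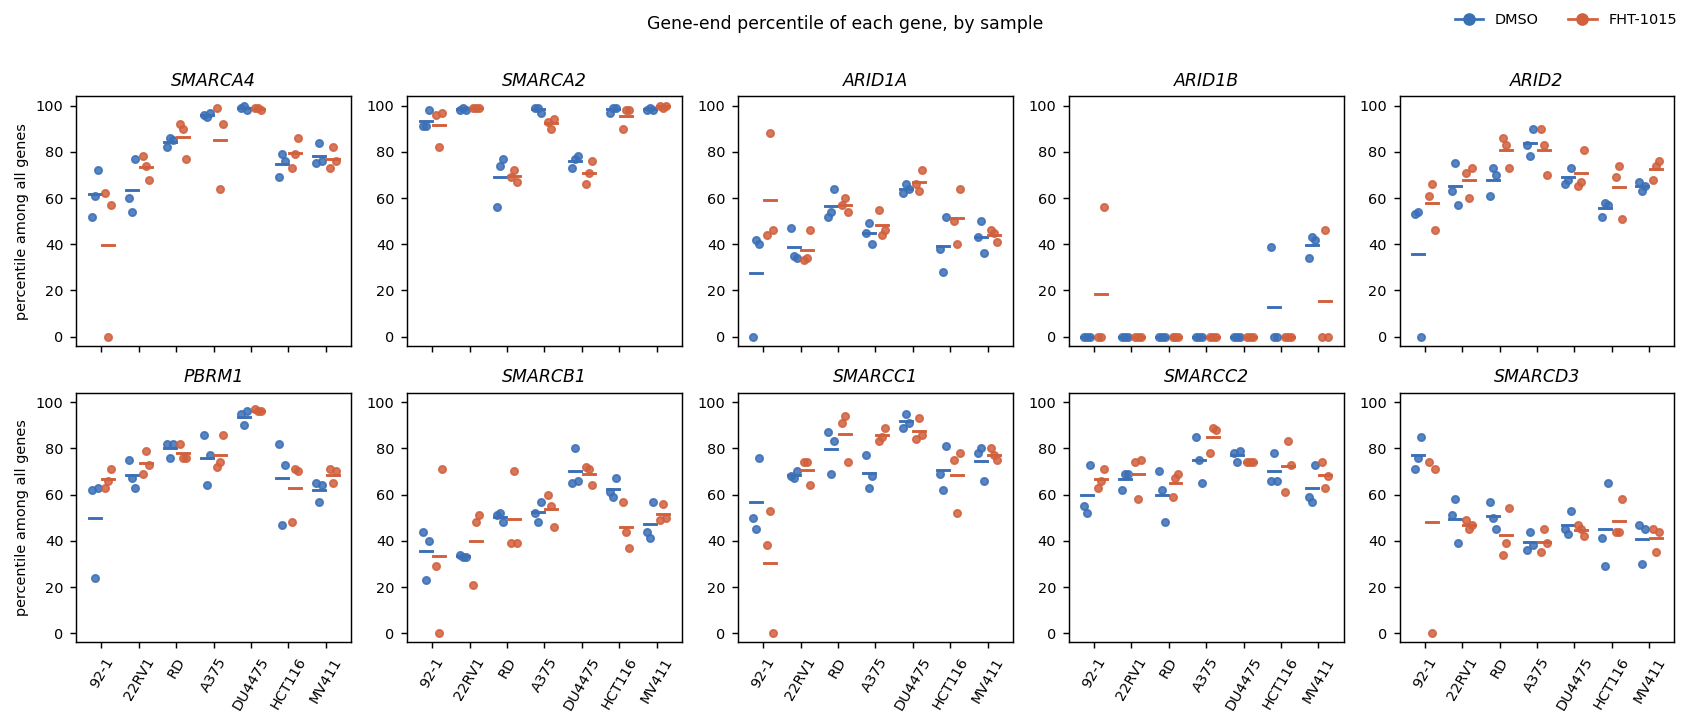
Gene-end percentile (0 to 100, vertical axis) of the 10 BAF genes in each of 7 cell lines; points are samples, bars the mean of 3, blue DMSO and orange FHT-1015. SMARCA2 lies at 90 or above in 12 of 12 samples of 22RV1 and HCT116 and at 56 to 77 in RD, while ARID1B is at 0 in most samples.

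The ATPase genes showed the strongest ends, and in different lines. SMARCA2 had a median percentile of 97 over the 42 samples. It stood at 98 to 100 in the 12 samples of 22RV1 and MV411, at 90 to 99 in the 12 of A375 and HCT116, and at 82 to 98 in 92-1. In RD its percentiles were 56, 74 and 77 in DMSO and 69, 72 and 67 in FHT-1015, and in DU4475 they were 73, 77 and 78 against 66, 71 and 76. The SMARCA2 end was thus lower in all 12 samples of RD and DU4475 than in all samples of the other 5 lines. SMARCA4 had a median of 78.5. Its end was at 98 to 100 in all 6 DU4475 samples and at 95, 96 and 97 in A375 DMSO, where FHT-1015 gave 99, 64 and 92. In 22RV1 it was at 60, 54 and 77 in DMSO and 78, 74 and 68 in FHT-1015, below SMARCA2 in every sample of that line. In A375 the SMARCA2 percentile was lower without overlap, 99, 99 and 97 against 93, 90 and 94, which 6.71% of genes with a peak there also were. The exact permutation test of 3 against 3 cannot go below p = 0.1.

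Among the core subunits, SMARCC1 had a median percentile of 75.5, SMARCC2 of 69.5 and SMARCB1 of 50.5. SMARCC1 was at 89, 95 and 91 in DU4475 DMSO and at 84, 93 and 86 in FHT-1015. In A375 it was 77, 63 and 68 in DMSO and 83, 85 and 89 in FHT-1015, higher without overlap (5.98% of genes there were). SMARCB1 in HCT116 was 61, 59 and 67 in DMSO and 57, 44 and 37 in FHT-1015, lower without overlap (3.97% of genes there). SMARCD3, a subunit most often linked with heart and muscle development, had a median of 45 and its highest values in 92-1 DMSO, at 71, 76 and 85. In the muscle tumour line RD its end was at 57, 50 and 45 in DMSO and 34, 39 and 54 in FHT-1015, so the end of SMARCD3 did not set RD apart. In the PBAF subunit PBRM1 the median was 72.5, with 90 to 97 in all 6 DU4475 samples. The end of PBRM1 lies 0.238 kb from that of GNL3, and a peak there cannot be assigned to either gene alone.

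ARID1B differed from the other 9 genes in that its first annotated start seldom held a peak. A deposited peak lay within 1 kb of either end in 6 of 42 samples and a strict one in 3, all of MV411. The strict summits lay instead around the second RefSeq start, within 1 kb of which 14 DMSO and 12 FHT-1015 samples had one, against 2 and 1 at the first start. All 12 samples of 22RV1 and MV411 had such a peak at the second start. In HCT116 it was present in 0 of 3 DMSO and 1 of 3 FHT-1015 samples. Summits at the second start that lay over 1 kb from the first were counted among the other peaks. The windows above show the difference in base composition between these starts. A strict peak at either end was found in 41 samples for SMARCA2, 38 for SMARCA4 and SMARCC2, 37 for SMARCC1, 36 for ARID2 and PBRM1, 26 for SMARCB1 and SMARCD3 and 23 for ARID1A.

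Away from the gene ends, FHT-1015 samples had fewer strict peaks. Summed over samples there were 1019 other peaks in DMSO and 697 in FHT-1015 (68.4%), and ARID1B alone accounted for 52.2% of the difference, with 372 against 204. By the exact stratified permutation test, adjusted over 19465 genes, 3 of the 10 genes were called lower (ARID1B, SMARCA2 and SMARCD3) and 0 higher, while 35.9% of all genes were called lower and 0.0205% higher. The share of the BAF genes called was thus near that of all genes. All 10 mean differences were below 0, as were 92.5% of all genes, and their median was −0.619 peaks against −0.524 for all genes.

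**Figure D2:**
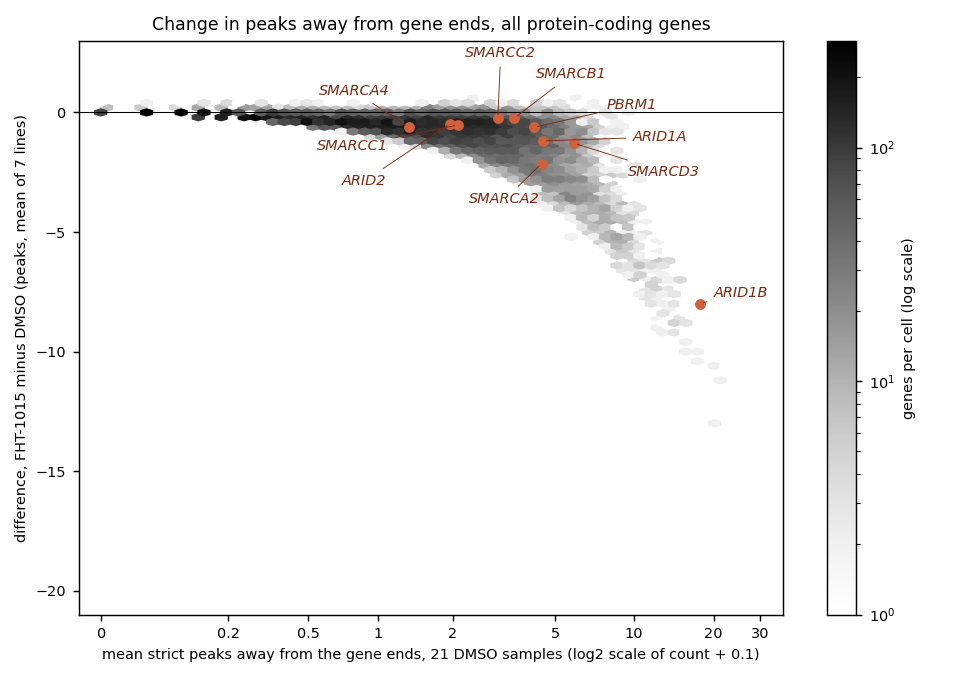
Difference in other strict peaks (FHT-1015 minus DMSO, mean of 7 lines, vertical axis) against the mean of the 21 DMSO samples (log2 scale of count + 0.1) for all protein-coding genes with such a peak (grey, darker where more genes lie) and the 10 BAF genes (orange). ARID1B has 17.7 peaks in DMSO and a difference of −8.00, and the other 9 genes lie between −2.14 and −0.238 within the grey cloud.

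ARID1B had the most such peaks in DMSO, with a mean of 17.7, more than 99.8% of the genes tested. Per 100 kb it held 3.76, at the 72.7th percentile, against a median of 2.14 for all genes. SMARCD3 was the densest of the 10 with 7.94 per 100 kb (93.7th percentile), and SMARCC1, ARID2 and SMARCA4 were the sparsest with 0.901, 0.911 and 0.972. Per length, ARID1B was thus nearer the middle of all genes than its count was.

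ARID1B had 37, 39 and 30 other peaks in the MV411 DMSO samples and 19, 12 and 16 in the FHT-1015 samples. In RD the counts were 23, 31 and 22 against 14, 6 and 12, in 22RV1 21, 25 and 19 against 14, 13 and 12, and in DU4475 22, 14 and 14 against 11, 13 and 6. In these 4 lines every FHT-1015 sample lay below every DMSO sample. The groups overlapped in 92-1 (16, 10 and 1 against 3, 0 and 0), A375 (12, 12 and 5 against 8, 17 and 9) and HCT116 (8, 8 and 3 against 8, 7 and 4). Over the 7 lines the mean fell from 17.7 to 9.71, a difference of −8.00 (SE over lines 2.85, adjusted p = 0.000768, exact stratified permutation test). The call held when any 1 of the 42 samples was left out (adjusted p between 0.000166 and 0.00155), without 92-1 (−8.00, adjusted p = 0.00315) and without MV411 (−6.06, adjusted p = 0.0129). It did not hold with the 30000 strongest peaks of every sample, where the means were 9.57 and 7.86 (difference −1.71, adjusted p = 0.179), or with the deposited lists without a threshold (63.1 and 54.3, adjusted p = 0.470).

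SMARCA2 carried its other peaks mainly in MV411, with 16, 15 and 15 in DMSO against 5, 3 and 7 in FHT-1015. In 22RV1 it had 4, 7 and 5 against 3, 3 and 2, also without overlap, and in DU4475 4, 3 and 4 against 3, 2 and 1. All 6 RD samples had 0. The SMARCA2 end ranked lower in RD and DU4475 than in the other lines, and DU4475 did have other peaks. HCT116 had 1, 2 and 1 in DMSO against 2, 3 and 2, A375 had 5, 5 and 3 against 3, 6 and 3, and 92-1 had 3, 0 and 0 against 0 in all 3. The mean fell from 4.43 to 2.29 (difference −2.14, SE 1.44, adjusted p = 0.0141, exact stratified permutation test). Without MV411 the difference was −0.778 and the call was lost (adjusted p = 0.192), so it rested on that line. Among the 30000 strongest peaks the means were 1.62 and 1.43 (difference −0.190, adjusted p = 0.900).

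SMARCD3 had most other peaks in RD, 13, 12 and 10 in DMSO against 8, 6 and 11 in FHT-1015, with overlap. In MV411 the counts were 5, 5 and 5 against 3, 4 and 2 and in 22RV1 5, 6 and 5 against 3, 3 and 4, both without overlap. The other lines overlapped: 92-1 had 7, 3 and 1 against 3, 1 and 0, A375 7, 6 and 5 against 4, 8 and 5, DU4475 8, 7 and 7 against 9, 8 and 6, and HCT116 3, 2 and 2 against 3, 4 and 2. The mean fell from 5.90 to 4.62 (difference −1.29, SE 0.570, adjusted p = 0.0421, exact stratified permutation test). Of 12 other settings, 1 kept this call, the window of 50 kb. It was lost in 11 of the 42 fits that left out 1 sample (adjusted p up to 0.0652), without 92-1 (adjusted p = 0.0915) and without MV411 (adjusted p = 0.171). The samples in question were 92-1 DMSO replicate 1 and FHT-1015 replicates 2 and 3, RD DMSO replicates 1 and 2 and FHT-1015 replicate 2, A375 DMSO replicate 1 and FHT-1015 replicates 1 and 3, and FHT-1015 replicate 3 of DU4475 and of HCT116. The call was also lost when peaks at the ends of neighbouring genes (ABCF2, ABCF2-H2BK1 and CHPF2) were set aside, which left 2.76 and 2.14 peaks (adjusted p = 0.234). Among the 30000 strongest peaks the direction turned, with 3.95 in DMSO and 4.57 in FHT-1015 (adjusted p = 0.475, exact stratified permutation test). In RD the counts there were 9, 8 and 10 against 12, 12 and 12, higher without overlap (3.49% of all genes there). The RD FHT-1015 lists held only 20960, 13760 and 28354 strict peaks, so the counts of 12 included peaks that were not strict.

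The remaining 7 genes were not called. SMARCA4 had 5, 4 and 5 other peaks in MV411 DMSO against 2, 3 and 0, and 3, 2 and 2 in RD DMSO against 0, 0 and 1. Both pairs were without overlap, while in 22RV1 it had 0 in all DMSO samples against 1, 1 and 0. Its mean was 1.33 in DMSO and 0.714 in FHT-1015 (difference −0.619, SE 0.532, adjusted p = 0.191, exact stratified permutation test). ARID1A had 6, 9 and 8 against 2, 2 and 4 in RD and a mean of 4.48 against 3.29 (adjusted p = 0.236). Without A375 FHT-1015 replicate 2, which held 14 ARID1A peaks against 4 and 2 in the other FHT-1015 samples of the line, both genes were called lower and the count of called genes rose from 3 to 5 (SMARCA4 adjusted p = 0.0216, ARID1A adjusted p = 0.0228).

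SMARCB1, the core subunit lost in rhabdoid tumours, had 7, 7 and 3 other peaks in RD DMSO against 1, 0 and 2, and 7, 8 and 7 in DU4475 against 8, 10 and 7. Its mean over lines was 3.48 against 3.24. SMARCC1 had means of 2.10 and 1.57, SMARCC2 of 3.00 and 2.76, and ARID2 of 1.95 and 1.48, with no line in which the groups failed to overlap. PBRM1 had 6, 5 and 5 in MV411 DMSO against 4, 3 and 4, and 6, 7 and 4 in A375 against 7, 10 and 7. The adjusted p of these 5 genes lay between 0.237 and 0.815. Their peaks included those at the ends of neighbours, such as UQCC5 beside PBRM1 (21 DMSO and 19 FHT-1015 samples) and MYL6 beside SMARCC2 (18 and 19).

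**Figure D3:**
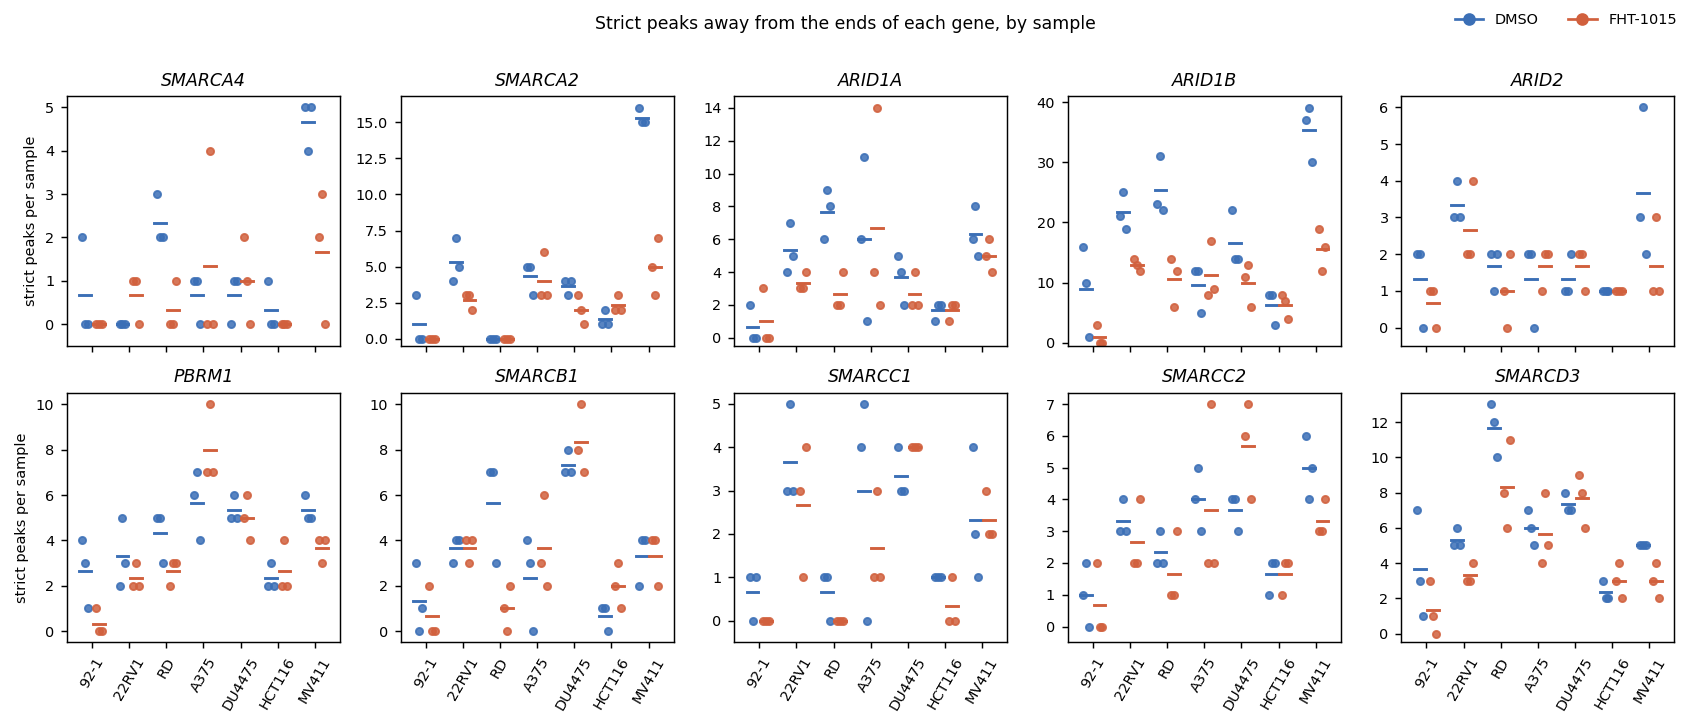
Strict peaks away from the gene ends (count per sample, vertical axis, a scale for each gene) at the 10 BAF genes in 7 cell lines; points are samples, bars the mean of 3, blue DMSO and orange FHT-1015. In MV411 the FHT-1015 points lie below all DMSO points for SMARCA4, SMARCA2, ARID1B, PBRM1 and SMARCD3, and in HCT116 for none of the 10 genes.

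Taken by line, 13 of 69 gene and line pairs with a peak were lower without overlap, against 17.7% of all gene and line pairs of the genome, and 0 were higher (0.379%). MV411 held 5 of them (43.9% of all genes were lower without overlap in that line), RD 4 (33.9%), 22RV1 3 (20.5%) and DU4475 1 (9.55%). The 4 in RD were SMARCA4, ARID1A, ARID1B and SMARCB1, and A375, HCT116 and 92-1 had 0 (2.28%, 2.24% and 8.18%). Summed over the 10 genes, MV411 had 86.3 ± 8.14 (SD, n = 3) other peaks in DMSO and 44.7 ± 3.79 in FHT-1015, and RD 61.7 ± 9.50 and 28.3 ± 10.02. In 22RV1 the sums were 55 ± 10.4 and 37 ± 3, in DU4475 53 ± 6.25 and 48 ± 11.5, and in 92-1 22 ± 18.1 and 5.67 ± 8.14. A375 had 43 ± 19.3 and 47.7 ± 25.4, and HCT116 18.7 ± 4.16 and 21 ± 5.57. The sums in FHT-1015 thus ran from 25.8% of DMSO in 92-1 and 45.9% in RD to 112.5% in HCT116. The response was compared between every pair of lines for each gene (210 comparisons, permuting treatment within lines). The lowest exact permutation p was 0.015, with an adjusted p of 0.583, and no difference between lines was called for any gene. With 400 assignments per pair of lines, no comparison on its own could pass the adjustment over 210 comparisons. The lack of a call thus does not show that the lines responded alike.

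With the 30000 strongest peaks of every sample all lists have equal length, so a fall shared by the whole genome cannot show. Where a list had few strict peaks, most of these 30000 were not strict. This held for 92-1 FHT-1015 replicates 2 and 3, with 2037 and 1412 strict peaks. It also held for 92-1 DMSO replicate 3 (14266) and RD FHT-1015 replicate 2 (13760). In RD all FHT-1015 lists had fewer than 30000 strict peaks (20960, 13760 and 28354), and all DMSO lists had more (45201, 48752 and 41806). In RD this scale thus sets strict peaks in DMSO against strict and weaker ones in FHT-1015. In HCT116 the lists of both treatments had fewer than 30000. By the exact stratified permutation test 0 of 10 genes were called lower (1.99% of 19235 genes) and 1 higher (3.91%), with 3 of 10 at an unadjusted p under 0.05 (19.3% of all genes). The median difference of the 10 genes was 0.452 peaks and that of all genes 0.0476. The gene called was PBRM1, from 2.81 to 3.76 (difference 0.952, SE 0.267, adjusted p = 0.0258), higher in 6 of 7 lines. Its counts were 6, 5 and 5 against 7, 7 and 7 in A375 (8.53% of all genes there were higher without overlap) and 2, 2 and 2 against 4, 3 and 4 in MV411 (12.8%). The PBRM1 window holds ends of NT5DC2, UQCC5, GNL3 and GLT8D1. With peaks at the ends of other genes set aside, its strict other peaks were 2.05 in DMSO and 1.48 in FHT-1015 (adjusted p = 0.109, exact stratified permutation test). For the 30000 strongest peaks this was not run. Of 68 gene and line pairs, 2 were lower (4.77% of all) and 7 higher (5.56%) without overlap. The lower ones were SMARCA4 in RD, with 2, 2 and 2 against 0, 1 and 1 (5.36% of all genes there), and ARID1B in 92-1, with 7, 11 and 8 against 4, 0 and 1 (4.91%). On this scale ARID1B had most peaks in RD DMSO (16, 20 and 17), and MV411 DMSO had 8, 7 and 7. The order of the lines thus differed from that of the strict counts.

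Strict peaks of all samples were merged into 315188 regions of 500 bp, of which 235 lay in the BAF gene loci, 20 at gene ends and 215 elsewhere. ARID1B held 93 of them and SMARCA2 26. By the exact stratified permutation test over all regions 0 of the 235 were called, with a lowest adjusted p of 0.614, and of the genome 0.00127% were called lower and 0.0% higher. An unadjusted p under 0.05 was found for 9, all lower (2.82% of the genome lower, 0.0197% higher). The exact stratified permutation test cannot call a region that is strict in samples of a single line only, however complete the change. An ARID1B region strict in all DMSO samples of 22RV1 and RD and in no other sample was not called either. The lack of calls thus does not show that these regions stayed unchanged. A line was said to lose a region that its 3 DMSO samples shared and that was strict in none of its treated samples. This was so for 37 of 247 region and line pairs (14.98%), against 22.5% of the pairs of the genome, and 0 were gained (0.586%). All 3 FHT-1015 samples kept the region in 154 of the 247 pairs (62.3%), and the share kept over the genome was not counted. At the gene ends 1 of 61 pairs was lost and elsewhere 36 of 186 (19.4%). When regions within 1 kb of an end of any gene were set apart, 2 of 117 pairs were lost there (1.71%, genome 4.12%) and 35 of 130 farther away (26.9%, genome 32.9%).

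MV411 lost 21 of 68 BAF gene regions (30.9%, genome 32.7%), RD 7 of 47 (14.9%, genome 20.8%), 22RV1 6 of 41 (14.6%, genome 26.4%), DU4475 2 of 46 (4.35%, genome 6.65%) and 92-1 1 of 5 (20%, genome 40.3%). A375 lost 0 of 29 (genome 7.49%) and HCT116 0 of 11 (genome 5.85%). A weaker deposited peak remained in at least 1 FHT-1015 sample for 26 of the 37 lost pairs: 15 of 21 in MV411, 7 of 7 in RD, 3 of 6 in 22RV1, 1 of 2 in DU4475 and 0 of 1 in 92-1. In 5 of the 37 it remained in all 3 FHT-1015 samples, and in 11 there was none. How often a weaker peak remained in lost pairs of the genome was not counted. Of 118 regions found in all 3 DMSO samples of any line, 69 were so in a single line, 36 of them in MV411. Other lines may hold these regions in fewer samples. MV411 DMSO had the longest strict lists, and the share over the genome was not counted. In all 7 lines 3 regions were so: the start of SMARCA2, the UQCC5 end beside PBRM1 and the ABCF2 end beside SMARCD3.

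**Figure D4:**
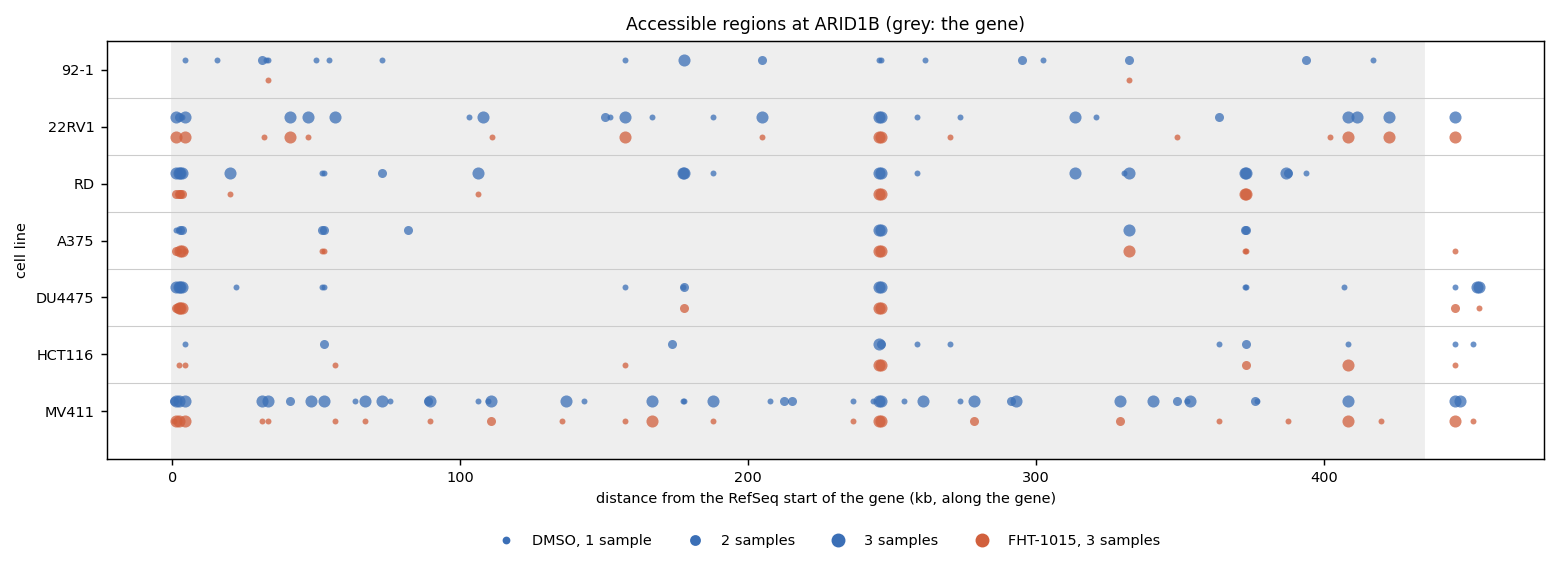
Regions of 500 bp at ARID1B by distance from the annotated start (kb, horizontal axis; grey is the gene) in each cell line; the dot size gives the number of samples (1 to 3) with a strict peak, blue DMSO above and orange FHT-1015 below. MV411 has the most dots, 25 regions in all 3 DMSO samples of which 8 stay in all 3 FHT-1015 samples, and the pair of regions near 245 kb is present in both treatments of every line except 92-1 with FHT-1015.

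At ARID1B, MV411 had 25 regions in all 3 DMSO samples, of which 9 were lost and 8 kept in all 3 FHT-1015 samples. Of the 25, 18 were in all 3 DMSO samples of no other line. RD had 15, with 5 lost and 4 kept, and 22RV1 15, with 4 lost and 9 kept. In A375 all 3 were kept. The regions lost in more than 1 line both lay inside the gene. The first (chr6:157089148-157089647, 313.4 kb from the start) was strict in 3 of 3 DMSO samples of both 22RV1 and RD and in no other sample (exact unadjusted p = 0.005, adjusted p = 0.614). The second (chr6:156953518-156954017, 177.7 kb in) was lost in 92-1 and RD and kept in 2 DMSO and 2 FHT-1015 samples of DU4475 (9 DMSO and 2 FHT-1015 samples in all, exact unadjusted p = 0.0115, adjusted p = 0.645). The constant pair lay at chr6:157021262-157021761 and chr6:157021903-157022402, 245.5 kb and 246.1 kb in, with 19 DMSO and 18 FHT-1015 samples and with 18 and 18. The nearest RefSeq start of ARID1B lay 244.1 kb away, and the pair stayed in all 3 FHT-1015 samples of 6 lines.

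At SMARCA2, 13 regions were in all 3 MV411 DMSO samples, of which 6 were lost and 3 kept in all 3 FHT-1015 samples. Of the 13, 9 were in all 3 DMSO samples of no other line. The start (chr9:2014934-2015433) was strict in 21 DMSO and 20 FHT-1015 samples, and the exception was FHT-1015 replicate 2 of 92-1, which had 2037 strict peaks in all. Further in, a region at chr9:2157707-2158206, 142.6 kb from the first start and beside a pair of internal RefSeq starts, was in 3 of 3 DMSO samples of both A375 and MV411. In A375 it stayed in 3 of 3 FHT-1015 samples and in MV411 in 0 of 3. The neighbouring region at chr9:2158246-2158745 had 2 and 2 samples in A375 and 3 and 0 in MV411. Across the gene RD had 1 region, the start.

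**Figure D5:**
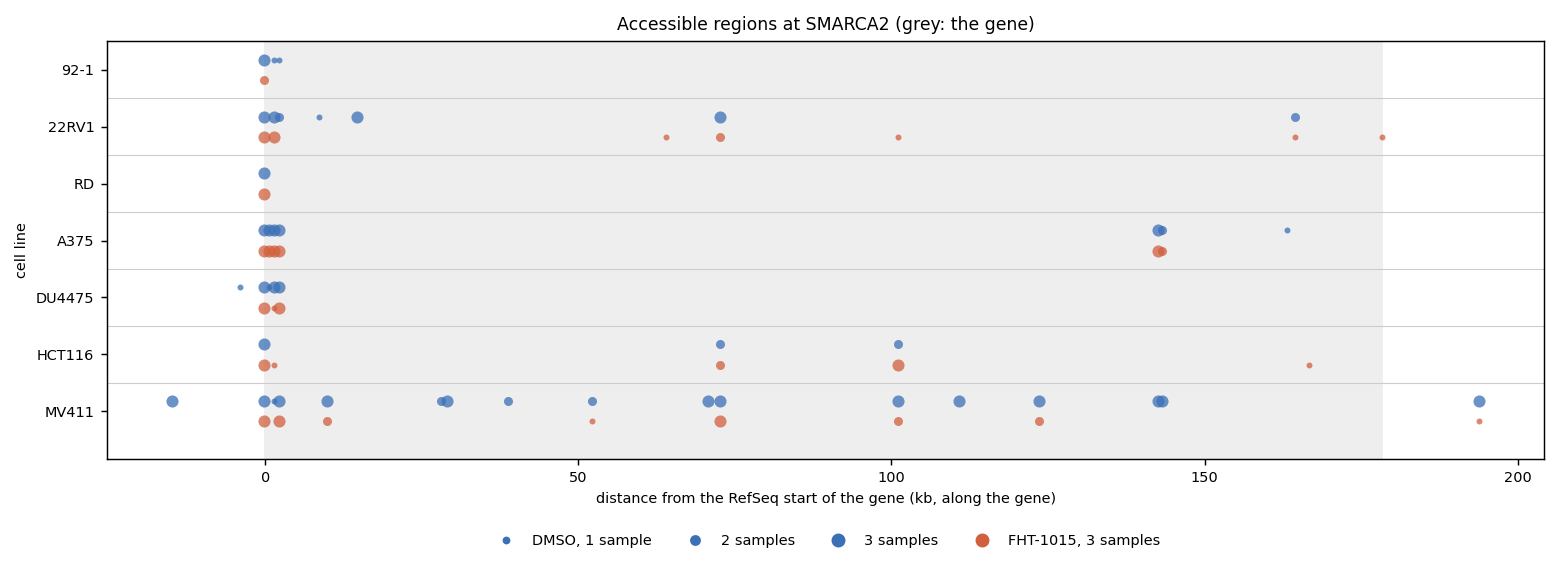
Regions of 500 bp at SMARCA2 by distance from the annotated start (kb, horizontal axis; grey is the gene) in each cell line; the dot size gives the number of samples (1 to 3) with a strict peak, blue DMSO above and orange FHT-1015 below. The start is present in all lines and both treatments, RD has no other region, and the pair near 143 kb is kept with FHT-1015 in A375 and absent with it in MV411.

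At SMARCA4 the start (chr19:10960682-10961181) was strict in 19 DMSO and 19 FHT-1015 samples, and 2 regions, at 19.1 kb and 108.7 kb from the start, were strict in 3 DMSO samples of MV411 and in no other sample. At SMARCD3, the start (chr7:151276924-151277423) was strict in 16 DMSO and 10 FHT-1015 samples (exact unadjusted p = 0.0935). An internal region beside a RefSeq start (chr7:151248963-151249462) was strict in 12 and 7 (exact unadjusted p = 0.04, adjusted p = 0.645), with 3 against 1 of 3 samples in both 22RV1 and MV411, 3 against 2 in A375, 3 against 3 in DU4475 and 0 in the other 3 lines. Within 1 kb of that start, at 151248694, 15 DMSO and 11 FHT-1015 samples had a strict peak, and in RD it was 1 against 3. The region at chr7:151233032-151233531, 0.799 kb from an end of CHPF2, was strict in 12 and 5 (exact unadjusted p = 0.005, adjusted p = 0.614) and was lost in DU4475. ARID1A lost a region 75.8 kb into the gene in MV411 (6 DMSO and 0 FHT-1015 samples, exact unadjusted p = 0.01) and 1 at 27.5 kb in RD (8 and 2, exact unadjusted p = 0.0486). The ends of SMARCC1 (19 and 18 samples), PBRM1 (18 and 18) and SMARCC2 (19 and 19) were as constant as that of SMARCA4. Of the gene ends, the one loss was the high-coordinate end of ARID2 (chr12:45907904-45908403) in MV411. No other line had this region in all 3 DMSO samples, while the other end of ARID2 was strict in 18 and 18 samples.

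Of 21 further BAF subunits, 6 were called lower in other strict peaks and 0 higher by the exact stratified permutation test, against 35.9% of all genes called lower. Their differences were below 0 for 18 and above 0 for 3 (92.5% of all genes were below 0), with a median of −0.476. The 6 called were DPF3 (4.48 to 1.62), BCL11A (5.52 to 3.48), BCL11B (3.62 to 1.81), PHF10 (2.67 to 1.71), BRD7 (1.52 to 0.571) and SS18 (1.38 to 0.571). Of 17 ATPases of other remodelling families, 7 were called lower and 0 higher by the same test, with 16 differences below 0, 1 above 0 and a median of −0.857. The 7 were CHD9 (11.05 to 6.43), CHD7 (6.81 to 2.86), CHD2, CHD6, SMARCA1, ATRX and SMARCAD1. Set against 3 of 10 and a median of −0.619 for the genes above, and 35.9% and −0.524 for all genes, the differences between these lists were not tested. At gene ends both further lists had 0 called genes by the exact stratified permutation test (0.298% of all genes were called lower). An unadjusted p under 0.05 was found for 2 and 1 (13.1% of all genes). Among the 30000 strongest peaks 14 of the 21 subunits had a difference above 0 and 6 below 0, where 35.9% of all genes were below 0. By the same test 3 were called higher (ACTL6B, DPF2 and BICRAL) and 0 lower, against 3.91% and 1.99% of all genes. Of the 17 ATPases 0 were called, with 4 at an unadjusted p under 0.05 (19.3% of all genes).

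The genes whose other peaks among the 30000 strongest varied most like those of each ATPase gene over the 42 samples were, for SMARCA2, NT5E (Pearson r = 0.80), DPYS (0.77) and STK24 (0.77), and for SMARCA4, HUNK (0.71), C4orf54 (0.67) and ZMIZ2 (0.66). None lay in an overlapping window. The samples fall into 7 lines and the counts are small, so these values describe shared patterns between lines only.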

How the data were processed

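The members and all lists were chosen with earlier results of these data known. Every sample had its own narrowPeak list. Per the submitters' processing notes, Bowtie2, Picard, MACS2, limma and HOMER and the build hg38 were used, with no roles or versions given. In the deposited lists the fold of a peak is the authors' ratio of pileup to background, and the authors' p and q are on the −log10 scale. The deposited score was not used. All these values served only to rank or filter peaks within a list. Whether reads were shifted for the transposase: not given in the sources used here.

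Summits on chromosomes 1 to 22 and X were set against RefSeq genes. Peak numbers, gene-end percentiles (from −log10 p) and calls per region (overlap of at least 100 bp) were tested over the 42 samples by an exact two-sided permutation test of FHT-1015 within lines, with Benjamini-Hochberg adjustment over all genes or regions and a threshold of 0.05. The SE is that of the 7 line differences. For a simulation, the counts of other peaks of 19465 genes were shuffled among the samples of each line, separately for each gene. With FHT-1015 counts cut to a share of 0.5, 29 of 100 genes were called, and 81 of 100 at a share of 0.25. Of 19265 unchanged genes 4 were called. Shuffling each gene on its own removed depth differences that all genes of a sample share. The 4 calls thus do not show how often such differences lead to a call. The cut genes were drawn from those with mean counts above those of SMARCA4, ARID2, SMARCC1 and SMARCC2. Far fewer genes changed there than were called in the real lists. Gene-end peaks, percentiles and regions were not simulated. The background pileup was solved from fold and −log10 p of up to 4000 peaks of a sample. This worked for at least 99.97% of them to within 0.01. The background of a sample was the value that the largest number of these peaks shared to within 1%. Those were 19.3% (A375 FHT-1015 replicate 1) to 78.1% (92-1 DMSO replicate 2) of the solved peaks. Same-line lists shared at most 6.37% of their intervals exactly. All 10 members are named. From the other lists, genes that passed the test are named. Regions named are those lost in the most lines or present throughout, and others beside an annotated start or with an unadjusted p under 0.05 were chosen after their values were seen. Likeness used the 3 highest Pearson r. Python 3.11.15, NumPy 2.4.6, pandas 2.3.3 and numba 0.67.0 were used.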

Additional observations from a re-analysis of the deposited data

How the results depend on the processing

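The 3 called genes of the strict other peaks became 0 with the deposited lists (0 at an unadjusted p under 0.05, exact permutation test), where 0.0151% of all genes were called lower. They became 1 at −log10 q of at least 10 (ARID1B; 22.8% of all genes), 0 with the 10000 strongest peaks (2 unadjusted; 1.73%), 1 with the 30000 strongest (PBRM1, higher) and 1 without MV411 (ARID1B; 16.1%). File names of 92-1, 22RV1, HCT116 and MV411 hold the word small, which no source used here explains: these 4 lines alone gave 2 (25.2%) and the other 3 alone gave 0 (1 unadjusted), where 0.0% of all genes were called. Peaks inside the gene only gave 3, with ARID1A (adjusted p = 0.0212) and without SMARCD3 (adjusted p = 0.308), where 28.4% of all genes were called lower. A window of 50 kb gave the same 3 genes (53.6%). Leaving out other gene ends gave 2 (33.9%) and leaving out 92-1 gave 2 (28.2%). Leaving out each sample in turn gave 2 to 5. The 2 were SMARCA2 and ARID1B in 11 fits, and the 5 came without A375 FHT-1015 replicate 2. The replicate numbers did not pair the samples: 4 of 21 same-number pairs had a correlation over 0.1, and 7 of 21 DMSO samples matched their own number best. With the replicate block 2 genes were called (32.9% of all; SMARCD3 adjusted p = 0.0540). The sign turned for SMARCA2 with the 10000 strongest peaks (0.0952 peaks, adjusted p = 1.00) and for SMARCD3 with the 30000 strongest (0.619, adjusted p = 0.475), and the cause was not tested. Gene-end peaks stayed at 0 called except 1 with the 10000 strongest (SMARCC1, 0.714 peaks higher, adjusted p = 0.0487). The gene-end percentile and the regions stayed at 0 called under all alternatives run, the samples left out in turn included. The 37 of 247 lost pairs became 12 of 177 with the 30000 strongest peaks (genome 12.4%; 6 gained) and 16 of 179 without MV411 (genome 17.1%), and ranged from 37 to 44 when a sample was left out. The 13 of 69 pairs lower without overlap, with 0 higher, became 6 of 70 with the deposited lists (9.5% of all pairs) and 3 higher (2.86%). With the 30000 strongest they became 2 of 68 (4.77%) and 7 higher (5.56%), without MV411 8 of 59 (12.4%) and 0 higher, and 13 to 16 when a sample was left out. The alternatives for pairs without overlap were chosen after seeing the data. The lists hold no read counts, so depth limits every count of strict peaks and a lost strict peak may be a weaker one.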
